A study of Drosophila melanogaster with 40 samples.

Results

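The cytosolic ribosomal protein genes of Drosophila melanogaster are described here across leg RNA-seq libraries from male flies of both strains. They were taken as every protein-coding gene in the count table whose name begins with RpL, RpS or RpLP and a number, which gave 92 of 23932 features, 54 of the large and 38 of the small subunit. Each gene was then placed by its mean level per kilobase of exon over all 40 libraries. Of the 92 genes, 65 had no second copy, 13 were the highest copy of a family with several copies, 3 were further copies at 10% or more of the highest one, and 11 were low paralogs under 10%. The first 3 classes form the 81 abundant members, and all 81 passed the filter on low counts.

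The knockout strain, called Hsp70-null below, carried Df(3R)Hsp70A and Df(3R)Hsp70B in a w1118 stock, which together remove Hsp70Aa, Hsp70Ab, Hsp70Ba, Hsp70Bb, Hsp70Bbb and Hsp70Bc. It was compared with a w1118 strain. Legs were taken from both strains at 7, 23 and 47 days of age without treatment, at 7 days directly after 2 h of exercise, and at 23 days after 19 days of training in rotating tubes. Each of the 10 groups had 4 pools of 15 males, and every library is 1 pool of whole legs. The stocks came from different stock centres, so the deletions and any other difference between the stocks cannot be told apart.

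A ribosome carries 1 copy of nearly every one of these proteins, and the small and large subunits are assembled in the nucleolus before export. The mRNAs are therefore among the most evenly and highly expressed in a cell, and loss of 1 gene copy of many of them gives the Minute phenotype of slow development and thin bristles in flies. Several members have further roles: RpS27A and RpL40 are made as fusions to ubiquitin, RpS6 is the substrate of the growth-regulated kinase S6k, RpLP0, RpLP1 and RpLP2 form the stalk that recruits elongation factors, and RpS12 is required for cells to be recognised as Minute in cell competition.

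Total counts ran between 21955858 and 30076080 reads per library at days 7 and 23 and between 35144736 and 39313671 at day 47, so depth and day 47 cannot be told apart. Over the 20 Hsp70-null libraries the 6 deleted genes held 1294 reads, of which 11 lay outside Hsp70Bb, against 2897 reads in the 20 w1118 libraries, of which 1748 lay outside Hsp70Bb. All 12 muscle and all 5 leg markers were detected at 1 CPM, the scaled read count of edgeR, or more in the median library of every group. In 4 libraries the summed level of 19 testis genes was more than 10 times the median of 3.77 CPM: Hsp70-null day 7 replicate 2 at 1445 CPM, w1118 exercised replicate 1 at 515.5 CPM, w1118 trained replicate 1 at 349.7 CPM and w1118 day 23 replicate 1 at 44.2 CPM. The last of these passed the limit but lay near the highest of the other 36 libraries, at 32.1 CPM. The 19 genes were part of a list of 23, and by the sum of the full list 0 libraries passed 10 times the median. Results that rest on these 4 libraries are given with and without them. In RNA from whole legs, fewer cells of a type and less RNA per cell cannot be told apart.

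The 81 abundant members lay close together. Their median level was 550.7 CPM per kilobase with quartiles of 424.3 and 718.9, and the highest level, 1978 CPM per kilobase for RpL41, which encodes the shortest of these proteins, was 18.02 times the lowest. That lowest level belonged to a second copy, RpL34a, at 109.8 CPM per kilobase, or 30.5% of RpL34b. RpL24-like, counted among the abundant members at 35.5% of RpL24, is the homologue of a yeast factor that holds the place of this protein in the immature large subunit. RpS14b lay at 89.1% of RpS14a, a neighbour on the X chromosome with a near-identical coding sequence, so the split between the pair is uncertain. Just below the 10% limit, RpS15Ab lay at 9.39% of RpS15Aa.

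Together the 81 genes took between 3.07% and 6.18% of all counted reads in a library, with a median of 4.22%. At day 7 the share was 3.20%, 3.59%, 4.18% and 4.62% in Hsp70-null pools, against 3.07%, 3.28%, 3.63% and 3.59% in w1118 pools. At day 23 it was 4.83%, 4.53%, 4.13% and 4.45% in Hsp70-null pools, against 4.81%, 5.71%, 4.38% and 4.15% in w1118 pools. At day 47 it was 5.50%, 5.44%, 5.91% and 6.18% in Hsp70-null pools, against 4.93%, 5.11%, 5.34% and 4.46% in w1118 pools. The strains overlapped at days 7 and 23 and separated at day 47, where every Hsp70-null pool exceeded every w1118 pool. Exercised pools averaged 3.81% ± 0.249 in Hsp70-null flies and 3.63% ± 0.215 in w1118 flies, and trained pools averaged 4.57% ± 0.331 in Hsp70-null flies and 4.27% ± 0.372 in w1118 flies (SD, n = 4 each). The 73 mitochondrial ribosomal protein genes together took between 0.143% and 0.186% of reads as group means. These shares use raw counts, whereas the fold changes below use edgeR's scaling factors, which tended to be higher at later ages. In untreated Hsp70-null pools the factors ran between 0.804 and 0.954 at day 7, 1.015 and 1.083 at day 23, and 1.083 and 1.161 at day 47. In untreated w1118 pools they ran between 0.873 and 0.976, 0.962 and 1.098, and 1.077 and 1.145.

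**Figure D1:**
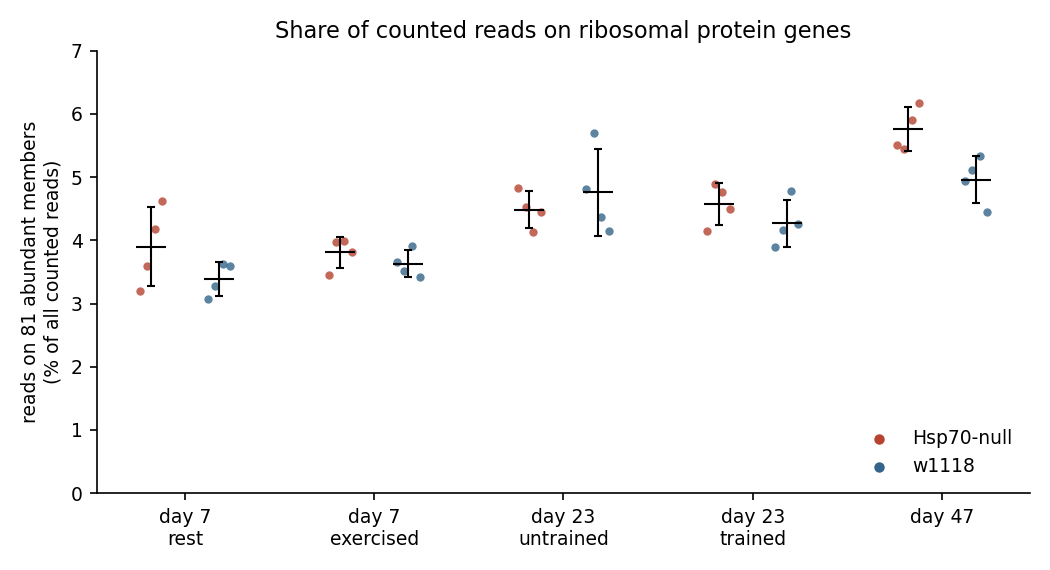
Share of all counted reads on the 81 abundant members, in percent, for each of the 40 libraries, by age and treatment (points: pools, bars: mean and SD of 4 pools). At day 47 the Hsp70-null pools sit between 5.44% and 6.18%, all above the w1118 pools, and at the younger ages the strains overlap.

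The members moved as a block from pool to pool. Within groups, the median correlation between pairs of the 81 genes was 0.81 over 40 libraries with 30 residual degrees of freedom, every pair was positive, and the first principal component held 77.7% of the variance. The 73 mitochondrial ribosomal protein genes gave a median of 0.55 and a first component of 54.8%. Pools share their scaling factor and depth across genes, so these values are descriptions without a test.

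Single pools therefore shifted the whole set. In w1118 day 23 replicate 2 all 81 genes lay above their group mean, with a mean deviation of 0.38 on the log2 scale, and in w1118 day 23 replicate 4 only 1 gene did, with a deviation of −0.27. Hsp70-null day 7 replicate 4 had all 81 above (0.20), and Hsp70-null exercised replicate 1 had 0 above (−0.23). The spread between pools of a group was largest for RpL39, RpS14a, RpL38 and RpL41, with SDs of 0.30, 0.29, 0.28 and 0.28 on the log2 scale, and smallest for RpL7 at 0.11. Across the 81 genes this spread ran against exon length (Spearman's rho of −0.46, a description over genes of the same libraries).

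Between day 7 and day 23, edgeR's quasi-likelihood test at an adjusted p of 0.05 called 0 of the 81 abundant members in Hsp70-null flies, with a median log2 fold change of −0.001 against −0.01 over all 12939 features tested, of which 17.3% were called. There, 2 of the 81 had an unadjusted p under 0.05, and DESeq2 called 1 of the 89 tested members. The mean share of raw reads on the 81 genes rose from 3.90% to 4.49% in these pools, so the flat median holds for scaled counts and not for raw shares. With RLE factors the median was −0.03, and with TMM factors computed without the members it was −0.003. In w1118 flies 33 of the 81 rose and 0 fell over the same interval, with a median of 0.33 against 0.04 over all features, of which 11.1% were called and 4.84% were called higher. The difference between the strains in this change was negative for 81 of 81 members, with a median of −0.37 against −0.02 over all features. By edgeR 0 of them were called in a comparison that called 0.232% of all features, and DESeq2 also called 0. An unadjusted p under 0.05 was found for 34, and the matching count over all features is not given here. The members moved together between pools, so neither count is one of separate observations.

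The w1118 count depended on single pools. Without w1118 day 23 replicate 2, the pool in which every member was high, 5 of 89 tested members were called between day 7 and day 23. Without replicate 4 of the same group it was 51, without replicate 1 it was 21, and without w1118 day 7 replicate 1 or 2 it was 13 or 20. Fitting only those 2 groups gave 5. The highest values in w1118 flies were those of RpL31, RpS28b and RpL36A, at 0.58 ± 0.15, 0.56 ± 0.14 and 0.55 ± 0.12 (SE, edgeR adjusted p of 0.0116, 0.00571 and 0.00261). RpL31 and RpS28b were not called without day 23 replicate 2 or with only those groups fitted.

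Between day 23 and day 47 the difference between the strains was not tested. In Hsp70-null flies RpL10, RpL35 and RpS27 rose (log2 fold changes of 0.45 ± 0.13, 0.44 ± 0.12 and 0.42 ± 0.12, SE, with edgeR adjusted p-values of 0.0418, 0.0357 and 0.0356), the median of the 81 was 0.28 against 0.02 over all features, and 3.6% of all features were called, 1.64% higher. RpL10 is loaded last onto the large subunit, RpL35 sits near the exit of the peptide tunnel and RpS27 belongs to the small subunit. In w1118 flies edgeR called 0 of the 81 and DESeq2 1 of the 89, 0 had an unadjusted p under 0.05, and the median was −0.04, while 13.4% of all features were called. In Hsp70-null flies DESeq2 called 16 of the 89 tested members, and edgeR called 16 when at least 10 counts were asked for in every library and 5 with RLE factors. The 3 Hsp70-null calls were lost without any 1 of Hsp70-null day 23 replicates 2, 3 or 4 or day 47 replicates 1, 3 or 4, and 5 members were called without day 47 replicate 2. In w1118 flies 1 member was called without day 23 replicate 3 or replicate 4.

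Over the whole span, day 47 against day 7, 23 of the 81 rose in Hsp70-null flies and 33 of 81 in w1118 flies, and 0 fell in either strain. The medians were 0.23 and 0.27, against −0.02 and 0.07 over all features, and 28.9% and 37.6% of all features were called. Counted upwards alone, 14% of all features were called higher in Hsp70-null flies and 19.2% in w1118 flies. The strains share no pool, and 21 genes were called in both, which is 91.3% of the Hsp70-null calls and 63.6% of the w1118 calls. The matching overlap over all features is not given here. Because the members moved together from pool to pool, their joint calls are not separate observations. The interaction of strain with this span called 0 of the 81, with 0 under an unadjusted p of 0.05 and 0 called by DESeq2, in a comparison that called 1.64% of all features. Of the 89 tested members 25 were called in Hsp70-null flies, and this was 12 without the 4 libraries with testis markers, 15 or 12 without day 7 replicate 1 or 2, and 14 or 15 without day 47 replicate 3 or 4.

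**Figure D2:**
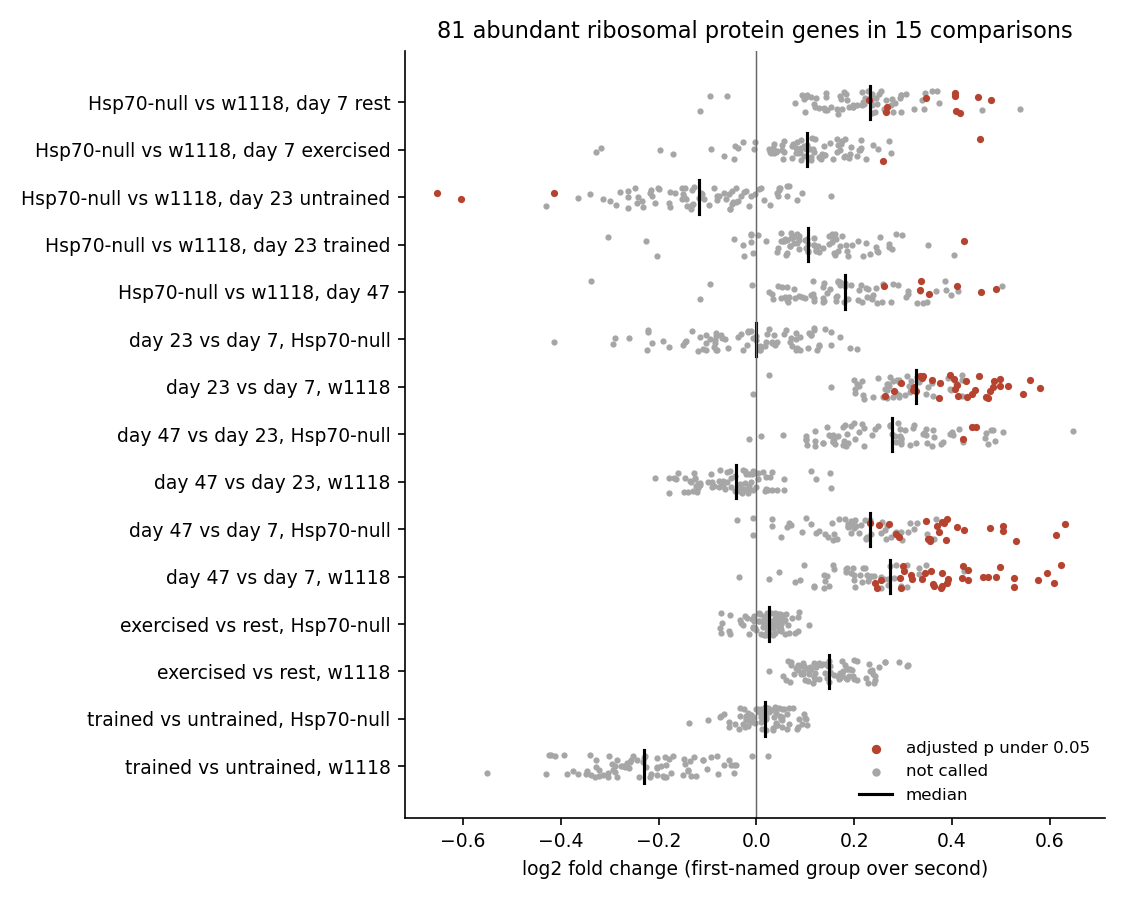
Log2 fold changes of the 81 abundant members in 15 comparisons, first-named group over second (grey: not called, red: adjusted p under 0.05 by edgeR, black bar: median). The early interval has a median of −0.001 in Hsp70-null and 0.33 in w1118 flies, and the late interval one of 0.28 in Hsp70-null and −0.04 in w1118 flies.

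RpL31 and RpL35, both of the large subunit near the tunnel exit, had the highest log2 fold changes of the abundant members over the whole span in Hsp70-null flies, and RpS21, RpL35 and RpS27 had the highest in w1118 flies. RpL35 read 794, 709, 761 and 910.2 CPM at day 47 in Hsp70-null pools, against 466, 437, 583 and 589.7 CPM at day 7. In w1118 pools it read 804, 780.4, 765 and 581 CPM at day 47, against 440.1, 472, 497 and 513 CPM at day 7. Every day 47 pool was above every day 7 pool of its strain, and the log2 fold changes were 0.61 ± 0.12 in both strains (SE, edgeR adjusted p of 0.000296 in Hsp70-null and 0.000197 in w1118 flies).

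RpL31 read 725, 692, 746 and 845 CPM at day 47 in Hsp70-null pools, against 439, 421, 518 and 565 CPM at day 7. In w1118 pools it read 632, 634, 622 and 394 CPM at day 47, against 364, 370.4, 398 and 399 CPM at day 7. The Hsp70-null ages did not overlap, whereas w1118 day 47 replicate 4 lay among the day 7 pools. The log2 fold change was 0.63 ± 0.15 in Hsp70-null and 0.58 ± 0.15 in w1118 flies (SE, edgeR adjusted p of 0.00259 and 0.00368).

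Other members with known roles were called in one direction or not at all. RpS21 rose by 0.38 ± 0.14 in Hsp70-null and 0.62 ± 0.14 in w1118 flies (SE, edgeR adjusted p of 0.0397 and 0.000693). RpS6 rose by 0.37 ± 0.10 in Hsp70-null and 0.30 ± 0.10 in w1118 flies (edgeR adjusted p of 0.00514 and 0.016). Of the stalk genes RpLP0 rose by 0.37 and 0.42 and RpLP1 by 0.39 and 0.38 in Hsp70-null and w1118 flies, while RpLP2, at 0.28 and 0.35, was not called (edgeR adjusted p of 0.182 and 0.0963). RpL5 and RpL11, which form a particle with 5S rRNA, were not called in either strain, nor were RpL40 and RpS27A. At the low end were RpL15, a large-subunit core protein, at −0.04 in both strains, RpL28 and RpL13A in Hsp70-null flies at −0.01 each, and RpL24 and RpL22 in w1118 flies at 0.03 and 0.05, of which none was called (edgeR adjusted p of 0.793 or more).

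Tissue markers moved with age as well. The summed level of 12 muscle genes, all detected, ran between 18000 and 21500 CPM at day 47 against 24400 and 38000 CPM at day 7 in Hsp70-null pools, and between 12900 and 14500 CPM against 24900 and 37700 CPM in w1118 pools. The sum of 12 gut genes, of which 11 were detected, ran between 2520 and 8430 CPM at day 47 against 227 and 1630 CPM at day 7 in Hsp70-null pools, and between 1860 and 19000 CPM against 108 and 1590 CPM in w1118 pools. Their part in the ribosomal protein values was not tested.

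Other genes of the translation machinery were followed through lists. Of 20 ribosome biogenesis genes, 10 rose and 1 fell in Hsp70-null flies and 18 rose and 1 fell in w1118 flies between day 7 and day 47, with medians of 0.30 and 0.54, beside 28.9% and 37.6% of all features called in either direction. The largest called changes were those of Surf6 (0.60 ± 0.13) and Fib, the methyltransferase fibrillarin (0.49 ± 0.18), in Hsp70-null flies, and those of nop5 (0.87 ± 0.19) and hoip (0.85 ± 0.20), both of the box C/D ribonucleoprotein, in w1118 flies. Of 32 initiation and elongation factors, 3 rose and 3 fell in Hsp70-null flies and 5 rose and 3 fell in w1118 flies, with medians of −0.04 and 0.04, beside the same shares of all features. The subunit eIF2beta had the largest change of these in both strains, at 0.58 ± 0.09 in Hsp70-null and 0.90 ± 0.09 in w1118 flies.

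Growth regulators are named only where they had the largest called changes of their list, so they do not stand for the list. Of these, Myc and S6k rose in both strains, Myc by 0.45 ± 0.16 in Hsp70-null and 0.67 ± 0.16 in w1118 flies. Over all features 28.9% and 37.6% were called in these comparisons. Xrp1, the transcription factor induced in Minute cells, rose by 0.49 ± 0.09 in Hsp70-null and 0.72 ± 0.09 in w1118 flies, with edgeR adjusted p-values of 6.53e-05 and 7.79e-08. Irbp18, also followed, moved little. It averaged 27.0 CPM at day 7 and 29.4 CPM at day 47 in Hsp70-null pools, and 28.1 and 29.8 CPM in w1118 pools. The ribosomal protein sta, which does not carry an RpS name, rose by 0.27 ± 0.09 and 0.34 ± 0.09 (edgeR adjusted p of 0.0268 and 0.00363). Rack1, followed beside sta, changed less. It averaged 557.0 CPM at day 7 and 581.1 CPM at day 47 in Hsp70-null pools, and 573.5 and 629.4 CPM in w1118 pools.

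On top of the shift of the whole set, some members gained or lost share of the set. For this, each library was scaled to the summed counts of the 81 abundant members, so a value gives the change of a gene relative to the rest of the set. By edgeR, 18 of the 81 were called in Hsp70-null flies between day 7 and day 47 (10 higher, 8 lower) and 18 in w1118 flies (12 higher, 6 lower). On this scale 30.2% and 36.1% of all features were called, and the members were not called more often than features at large. The scale takes out the shift that the members share, so the shares of members and of features are not a like comparison. RpL12, RpL31, RpL32, RpL35, RpL36A, RpS26 and RpS27 were called higher in both strains, RpL15, RpL34a and RpS3A were called lower in both, and 0 were called in opposite directions.

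RpL15 shows the falling side. It made up 1.67%, 1.43%, 1.53% and 1.72% of ribosomal protein reads at day 47 in Hsp70-null pools, against 2.08%, 1.93%, 1.93% and 1.87% at day 7. In w1118 pools it made up 1.64%, 1.77%, 1.71% and 1.34% at day 47, against 2.11%, 2.02%, 1.95% and 2.06% at day 7. The ages did not overlap in either strain, and the relative log2 fold changes were −0.30 ± 0.07 and −0.33 ± 0.07 (SE, edgeR adjusted p of 0.0015 and 0.000319).

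On the rising side RpL35 gained 0.37 ± 0.06 in Hsp70-null and 0.32 ± 0.06 in w1118 flies relative to the set, and RpS27 gained 0.26 ± 0.05 and 0.31 ± 0.05 (SE). RpL15 shares 6.68% of its exon length with a snoRNA gene on its strand. Leaving out Hsp70-null day 7 replicate 2, the library with the highest testis markers, brought the Hsp70-null count to 11, leaving out all 4 such libraries brought it to 9, and fitting only the groups compared gave 7 in Hsp70-null and 6 in w1118 flies. In that last fit RpL12, RpL34a, RpS3A and RpS26 were no longer called in Hsp70-null flies, nor were RpL12, RpL31, RpL32, RpL34a, RpL36A and RpS3A in w1118 flies.

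**Figure D3:**
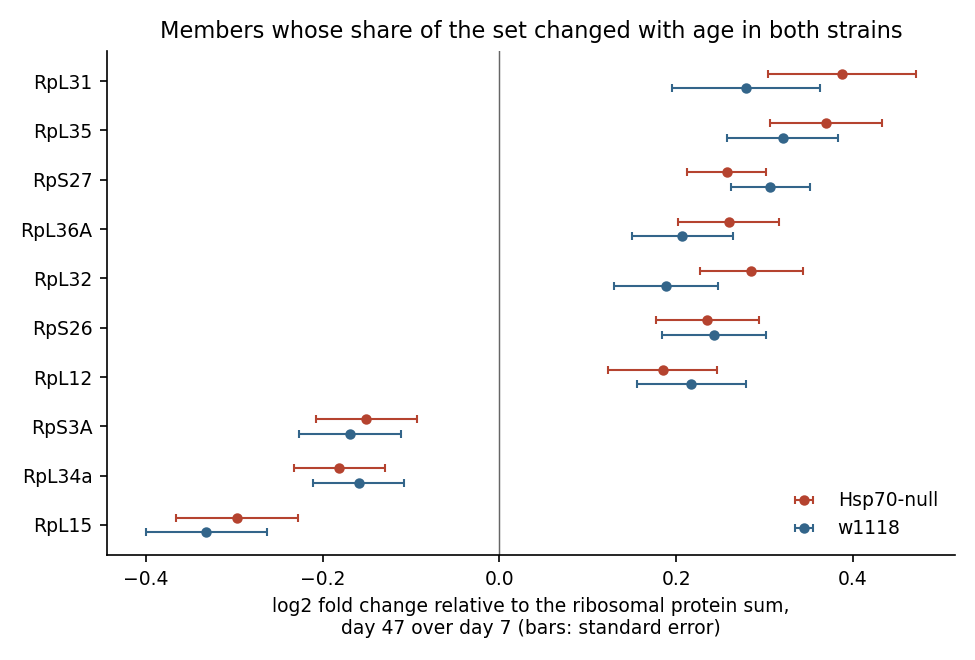
Log2 fold change from day 7 to day 47 relative to the summed ribosomal protein counts for the 10 members called in both strains, with standard errors. RpL31 and RpL35 lie furthest to the right, at 0.39 and 0.37 in Hsp70-null flies, and RpL15 lies at −0.30 in Hsp70-null and −0.33 in w1118 flies.

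Between strains the set as a whole differed by small amounts. At day 7, 10 of the 81 were higher and 0 lower in Hsp70-null flies, with a median log2 fold change of 0.23 against 0.01 over all features and 25.8% of all features called, 15.8% higher. At day 23, 0 were higher and 3 lower (median −0.12, 17.8% of all features called and 9% lower), and at day 47, 7 were higher and 0 lower (median 0.18, 19.4% called and 9.93% higher). Among exercised flies 2 were higher (median 0.10, 20.2% called) and among trained flies 1 was higher (median 0.11, 15.6% called).

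The strain counts moved both ways with the settings and the pools. Over the 89 tested members the day 7 count of 13 was 25 by DESeq2 and 26 with RLE factors, and the day 47 count of 7 was 18 by DESeq2 and 11 with RLE factors. Leaving out single pools, the day 7 count was 24 without Hsp70-null replicate 1, 8 without replicate 4, and 1, 7, 6 or 5 without w1118 replicate 1, 2, 3 or 4. The day 47 count was 1 or 2 without Hsp70-null replicate 3 or 4 and 2 without w1118 replicate 4, and the day 23 count of 3 was 7 without w1118 replicate 4 and 5 by DESeq2. In exercised flies the count was 4 without Hsp70-null replicate 1 and 1 without Hsp70-null replicate 2, 3 or 4 or w1118 replicate 1, 2 or 4. In trained flies it was 2 or 0 without Hsp70-null replicate 1 or 2, and 3 without w1118 replicate 3.

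RpLP1 was the member called most often, higher in Hsp70-null flies in 4 of the 5 strain comparisons. At day 7 it read 599.7, 613, 763 and 788 CPM in Hsp70-null pools, against 477, 469.8, 508 and 527 CPM in w1118 pools. At day 23 it read 753, 806, 635 and 705 CPM in Hsp70-null pools, against 669, 858, 566 and 514 CPM in w1118 pools. At day 47 it read 843, 871, 959 and 952 CPM in Hsp70-null pools, against 659, 662, 695 and 563 CPM in w1118 pools.

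For RpLP1 the strains were apart at days 7 and 47 and overlapped at day 23, where w1118 replicate 2 held the highest value. The log2 fold changes of RpLP1 were 0.48 ± 0.12, 0.15 ± 0.12 and 0.49 ± 0.12 at days 7, 23 and 47, 0.46 ± 0.12 in exercised and 0.42 ± 0.12 in trained flies (SE, edgeR adjusted p of 0.00381, 0.441, 0.00284, 0.00584 and 0.0119). The call in trained flies was lost without Hsp70-null trained replicate 2 (0.074).

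Other members called at day 7 included RpL29 (0.45 ± 0.13), RpL8, RpS27A, RpL11, RpS20, RpS4, RpLP0 and RpL7A. RpL29 was not called without Hsp70-null replicate 4 or w1118 replicate 1. RpL8, RpS20 and RpS4 were called again at day 47, and RpS24 and RpS30 were also called there. RpL39 and RpL41 had log2 fold changes of 0.54 ± 0.21 and 0.46 ± 0.20 at day 7 without being called (edgeR adjusted p of 0.053 and 0.0796). Both are among the members whose pools varied most. The members nearest to the deletions on chromosome arm 3R were RpL24-like at 0.523 Mb, RpL3 at 0.729 Mb and RpS25 at 0.738 Mb, and none of them was called in a strain comparison of 1 age or treatment.

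The 3 members lower in Hsp70-null flies at day 23 were RpS21, RpS12 and RpL34a. RpS21 and RpS12 belong to the small subunit, and RpL34a is the lesser of the pair of RpL34 genes. Their log2 fold changes were −0.65 ± 0.14, −0.60 ± 0.14 and −0.41 ± 0.10 (SE, edgeR adjusted p of 0.000791, 0.0027 and 0.00385), and with only those groups fitted RpS21 was not called (0.0577). In the other 4 strain comparisons their log2 fold changes were negative and not called, between −0.10 and −0.34 for RpS21, −0.09 and −0.32 for RpS12, and −0.06 and −0.20 for RpL34a.

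Relative to the rest of the set, these 4 genes differed in every strain comparison. On that scale edgeR called RpLP1 higher and RpS21, RpS12 and RpL34a lower in Hsp70-null flies in all 5 comparisons. It called no other member in more than 2. The comparisons share no pool but set the same stocks against each other. The share of all features called in all 5 is not given here. In total 11, 9 and 12 of the 81 were called at days 7, 23 and 47, 7 in exercised and 4 in trained flies, where 31.1%, 12.7%, 22.2%, 16.9% and 13.4% of all features were called. In none of these comparisons were the members called more often than features at large, but the scale takes out the shift that the members share. The relative log2 fold changes ran between 0.24 and 0.35 for RpLP1, −0.54 and −0.33 for RpS21, −0.48 and −0.30 for RpS12, and −0.32 and −0.28 for RpL34a. The 20 comparisons of these 4 genes had adjusted p-values of 0.00125 or less.

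RpS21, on chromosome arm 2L, encodes a small-subunit protein with a role in growth control in fly larvae. It made up 0.420%, 0.471%, 0.405% and 0.448% of ribosomal protein reads at day 7 in Hsp70-null pools, against 0.533%, 0.601%, 0.537% and 0.519% in w1118 pools. At day 47 it made up 0.473%, 0.447%, 0.513% and 0.473% in Hsp70-null pools, against 0.659%, 0.729%, 0.673% and 0.712% in w1118 pools. Over all ages and treatments the 20 Hsp70-null pools lay between 0.363% and 0.513% and the 20 w1118 pools between 0.519% and 0.729%, without overlap.

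RpS12, on 3L, is the member tied to cell competition. At day 7 it made up 0.531%, 0.566%, 0.487% and 0.562% of ribosomal protein reads in Hsp70-null pools, against 0.653%, 0.715%, 0.690% and 0.675% in w1118 pools. At day 47 it made up 0.546%, 0.563%, 0.584% and 0.574% in Hsp70-null pools, against 0.692%, 0.696%, 0.703% and 0.691% in w1118 pools. The 20 Hsp70-null pools lay between 0.487% and 0.589% and the 20 w1118 pools between 0.653% and 0.795%, again without overlap.

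RpLP1, on 2L at 419952 to 420864 in the BDGP6 assembly, lay on the other side. It made up 1.504%, 1.54%, 1.74% and 1.60% of ribosomal protein reads at day 7 in Hsp70-null pools, against 1.37%, 1.25%, 1.37% and 1.40% in w1118 pools. At day 23, where its CPM overlapped, it made up 1.68%, 1.80%, 1.59% and 1.72% in Hsp70-null pools, against 1.48%, 1.45%, 1.34% and 1.36% in w1118 pools. All 20 Hsp70-null pools lay above all 20 w1118 pools, with means of 1.69% ± 0.0897 and 1.38% ± 0.0651 (SD, n = 20 each). The other stalk genes RpLP0 and RpLP2 were called in 0 of the 5 comparisons on this scale.

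RpL34a, on 3R at 26058420 to 26059267 and 13.5 Mb from the nearest deleted gene, made up 0.142% ± 0.00822 of ribosomal protein reads in Hsp70-null pools and 0.175% ± 0.00978 in w1118 pools (SD, n = 20 each). The pools of the strains did not overlap within any of the 5 pairs of groups. Of the reads on RpL34a and RpL34b together, RpL34a took 16.2% ± 0.243 at day 7 in Hsp70-null pools and 19.2% ± 0.486 in w1118 pools (SD, n = 4 each). At day 47 it took 14.1% ± 0.516 in Hsp70-null pools and 18.6% ± 2.94 in w1118 pools. For this share of the pair the strains did not overlap at days 7 and 47 or in exercised flies. They overlapped at day 23, between 14.5% and 17.3% in Hsp70-null and 17.2% and 19.1% in w1118 pools. Trained pools overlapped as well, between 13.1% and 17.6% in Hsp70-null and 17.4% and 20.8% in w1118 flies.

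**Figure D4:**
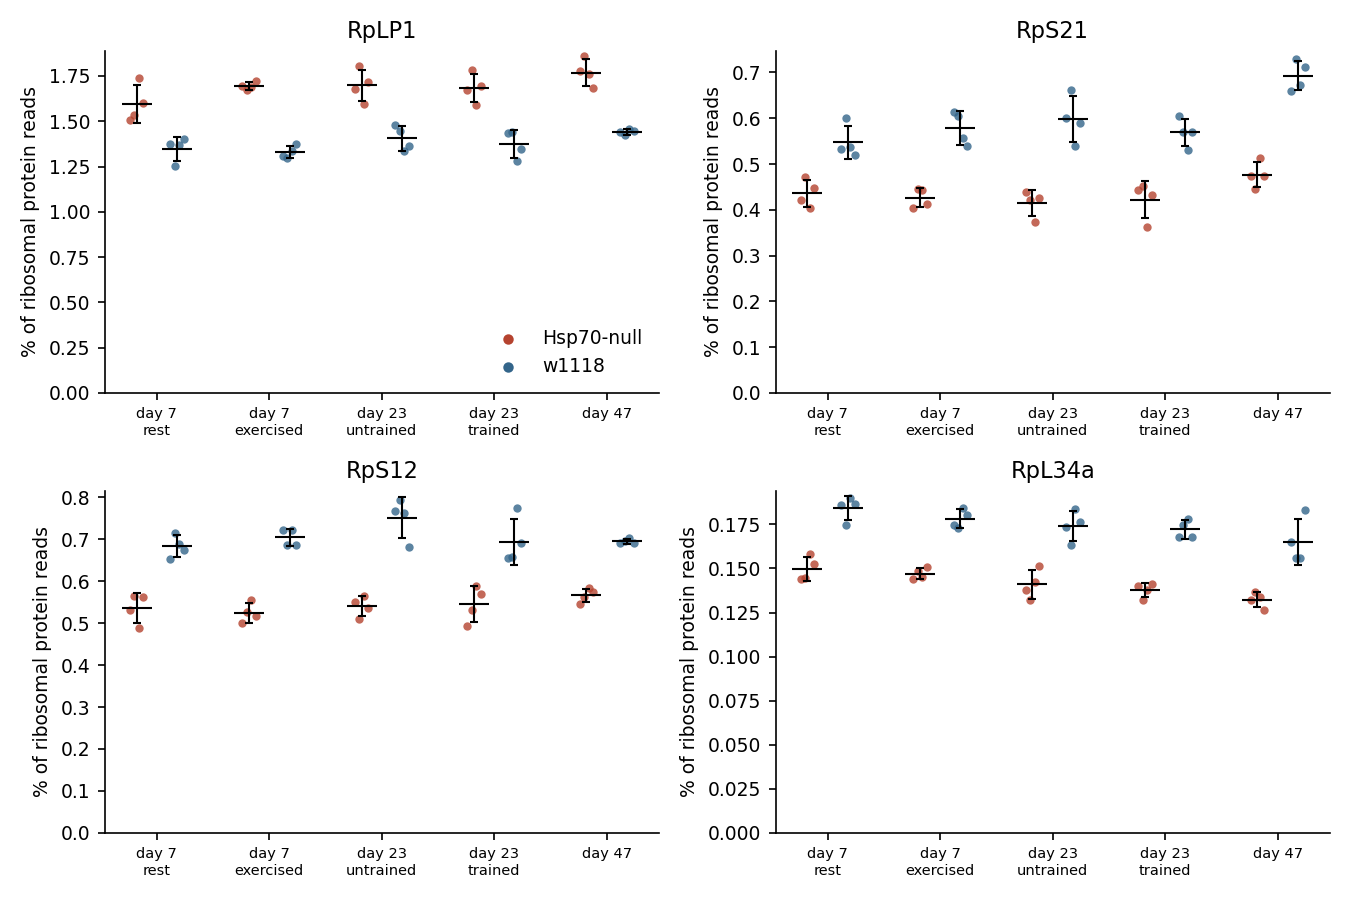
Share of ribosomal protein reads, in percent, for RpLP1, RpS21, RpS12 and RpL34a in every library (points: pools, bars: mean and SD of 4 pools). For RpLP1 the Hsp70-null pools all lie above the w1118 pools, for RpS21 and RpS12 they all lie below, and for RpL34a they lie below within each pair of groups.

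Averaged over the 5 strain comparisons, 16 of the 81 members were higher and 19 lower in Hsp70-null flies relative to the set. On that scale 41.9% of all features were called, which is close to the share among the members, although the scale takes out the shift that the members share. After RpLP1 the next highest was RpL8, a large-subunit core protein, at 0.18, and after RpL34a the next lowest was RpL36 at −0.17. When only the groups compared were fitted, the relative calls for RpLP1 were lost at day 7 (adjusted p of 0.0583), day 23 (0.135) and in trained flies (0.0501), for RpL34a at day 23 (0.114) and for RpS12 in trained flies (0.0565). On the scale of all genes the same average gave 33 higher and 3 lower, the 3 being RpS21, RpS12 and RpL34a, with a median of 0.10 against −0.01 over all features and 41.8% of all features called.

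Neither acute exercise nor training gave a call. Exercised against resting flies had 0 of 81 called in both strains by edgeR and by DESeq2, with 0 in Hsp70-null and 1 in w1118 flies at an unadjusted p under 0.05. The medians were 0.03 in Hsp70-null and 0.15 in w1118 flies, against 0.001 and 0.004 over all features. Of the 81 values 61 and 81 were positive, which are not separate observations because the members moved together between pools. Of all features 0.0464% and 0.402% were called. Trained against untrained flies likewise had 0 of 81 called by edgeR and by DESeq2, with medians of 0.02 and −0.23 in Hsp70-null and w1118 flies.

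After training 28 of 81 values were negative in Hsp70-null flies and 0 had an unadjusted p under 0.05, against 80 of 81 negative and 32 under that p in w1118 flies. How many of all features lay under that p is not given here, and the members moved together between pools. Of all features 0.0464% were called in Hsp70-null and 0% in w1118 flies. The lowest value was that of RpL39, at −0.55 ± 0.21 in w1118 flies (edgeR adjusted p of 0.698). The untrained w1118 group holds the pool in which all 81 members were high. The interaction of strain and training was positive for 81 of 81 members with a median of 0.24, against −0.01 over all features. Both edgeR and DESeq2 called 0, with 1 at an unadjusted p under 0.05 and 0% of all features called. Signs of members that move together are not separate observations.

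The 11 low paralogs fell into separate kinds. RpS15Ab, RpL7-like and RpLP0-like had 10 or more reads in all 40 libraries, with 8.45% to 9.32% of their reads in the 4 libraries with testis markers, which hold 9.40% of all reads. RpL7-like and RpLP0-like are the homologues of yeast assembly factors of the large subunit, and RpL7-like shares 98.8% of its exon length with CG34164 on the same strand, so its reads cannot be assigned with certainty. The other 8 lay under 0.25% of their main copy, and RpS10a, RpL37b and RpS28a of these did not pass the filter.

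Among the 8, reads of all but RpS5b came largely from the 4 libraries with testis markers: 92.4% of RpL10Aa reads, 87.9% of RpL22-like, 86.2% of RpS28a, 82.8% of RpS19b, 73.8% of RpL37b, 63.7% of RpS10a and 60.5% of RpS28-like. For RpS5b it was 38.8%, with 262 reads in those libraries and 414 in the other 36. RpL10Aa read 25.3 CPM in Hsp70-null day 7 replicate 2, 7.66 CPM in w1118 exercised replicate 1 and 4.69 CPM in w1118 trained replicate 1. In w1118 day 23 replicate 1 it read 0.492 CPM, within the range of the other 36 libraries. Those 36 libraries read at most 0.568 CPM of RpL10Aa, and 22 of them were at 0. Their summed testis markers reached 32.1 CPM, so they were below the limit rather than free of such markers. RpS19b read 13.6 CPM in Hsp70-null day 7 replicate 2 and at most 0.518 CPM in the 36 libraries. Their tissue source was not tested.

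**Figure D5:**
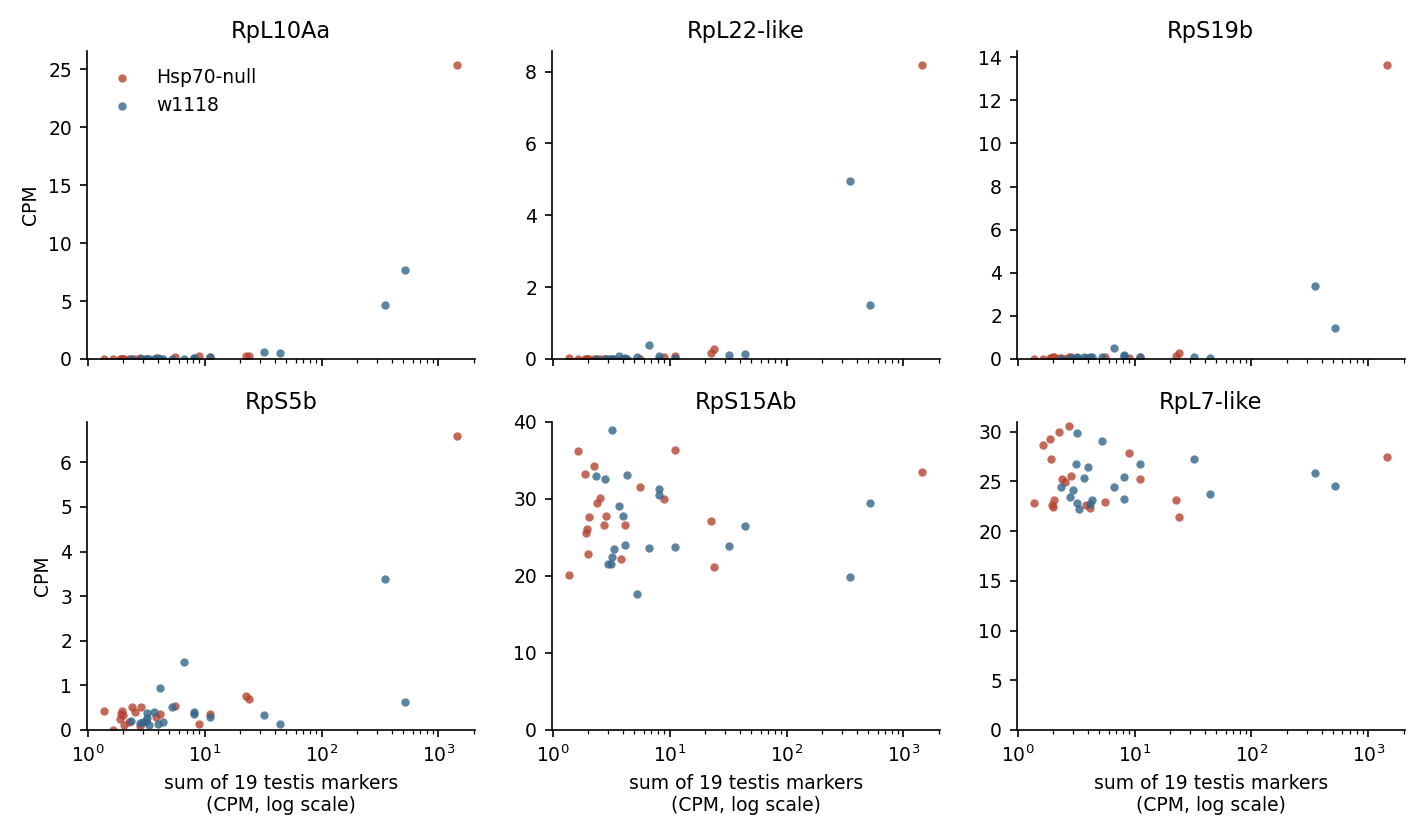
Level of 6 low paralogs in each of the 40 libraries, in CPM, against the summed level of 19 testis markers on a log axis. RpL10Aa, RpL22-like, RpS19b and RpS5b reach 25.3, 8.17, 13.6 and 6.58 CPM in the library with the highest marker sum, whereas RpS15Ab and RpL7-like are present throughout.

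The edgeR calls of these rare paralogs followed the same pools. RpL10Aa, RpS19b and RpS5b were called higher in Hsp70-null flies at day 7 (adjusted p of 0.0322, 0.0186 and 0.0385), and without Hsp70-null replicate 2 the calls were lost, with log2 fold changes of −0.14 for RpS19b and −0.02 for RpS5b (adjusted p of 0.969 and 0.993) and an adjusted p of 0.537 for RpL10Aa. RpL22-like, RpS19b and RpS28-like, called lower at day 23 than at day 7 in Hsp70-null flies, also lost their calls without that library.

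RpS15Ab, the copy just under the limit, took a smaller part of its pair at later ages. Of the reads on RpS15Ab and RpS15Aa together it took 8.05% ± 0.692, 6.76% ± 0.533 and 5.95% ± 0.334 at days 7, 23 and 47 in Hsp70-null pools, and 8.37% ± 0.553, 6.57% ± 0.435 and 5.36% ± 0.234 in w1118 pools (SD, n = 4 each). No day 47 pool reached a day 7 pool of its strain. Its own level in w1118 flies was 23.6, 23.7, 23.9 and 17.7 CPM at day 47, against 32.5, 33.1, 29.1 and 27.8 CPM at day 7, so that it fell by 0.46 ± 0.12 on the log2 scale (SE, edgeR adjusted p of 0.00366). In Hsp70-null flies the log2 fold change was −0.27 ± 0.12 and was not called (edgeR adjusted p of 0.0862).

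RpLP0-like read 17.1, 16.9, 20.9 and 22.1 CPM at day 47 in Hsp70-null pools, against 14.8, 16.6, 14.5 and 15.8 CPM at day 7. In w1118 pools it read 16.4, 16.7, 15.6 and 21.8 CPM at day 47, against 14.02, 12.1, 12.5 and 12.8 CPM at day 7. The ages did not overlap in either strain. The log2 fold change was 0.32 ± 0.13 in Hsp70-null flies, which was not called, and 0.46 ± 0.13 in w1118 flies, which was (SE, edgeR adjusted p of 0.0552 and 0.00466).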

How the data were processed

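Poly(A) RNA from legs was sequenced from strand-specific libraries, per the labels' protocols, in 10 groups of 4 pools. The authors deposited raw read counts per gene for all 40 libraries. HISAT2 2.1.0, kallisto 0.44.0 and the BDGP6 genome are named in the submitters' processing notes; the counting rule is not given in the sources used here. Exon lengths, chromosomes and positions were read from an Ensembl annotation of BDGP6, matched by gene identifier, and 23851 of 23932 features had a length.

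Counts were tested with edgeR 4.0.16 in R 4.3.3: filterByExpr (12939 features, 89 of the 92 members), TMM factors, one quasi-likelihood fit over all 40 libraries with 10 group means and 30 residual degrees of freedom, and Benjamini-Hochberg adjustment over all features at 0.05. The SE of a log2 fold change was taken as its size divided by the square root of its F statistic. CPM use TMM-adjusted library sizes. Shares are raw counts over the stated sum. A second fit used the summed counts of the 81 abundant members as library size. Comparisons of 1 age or treatment use 4 pools against 4, and p-values measure the spread between pools. Within-group correlations used log2(CPM + 0.5).

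The text names all multi-copy families, the 3 highest and 3 lowest single or main copies of each comparison, and up to 2 called genes per other list; RpL34a, the role genes and those gaining or losing share were also chosen with their values known. Members, lists and the second fit were chosen with earlier results of these data known. Alternatives were DESeq2 1.42.0, RLE factors, TMM without the members, other filters, a replicate block, only the groups compared, and leaving out libraries. The test was checked on simulated counts. Libraries of a group differed beyond counting noise (chi-square per degree of freedom 25.2 to 350), so none was counted as a repeat. The values of 1 member are not reported here.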

Additional observations from a re-analysis of the deposited data

Results flagged for a closer look

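In 35 of 300 sets of 4 pools examined, 1 pool lay further from the others than Dixon's 95% critical value allows; chance marks about 1 set in 20. Low paralogs made up many of these. At Hsp70-null day 7, replicate 2, the library with the highest testis markers, held the high values of 25.3 CPM for RpL10Aa, 8.17 for RpL22-like, 13.6 for RpS19b, 6.45 for RpS28-like and 6.58 for RpS5b. In w1118 exercised flies replicate 1, another library with testis markers, held 7.66 CPM for RpL10Aa, 1.51 for RpL22-like and 1.42 each for RpS19b and RpS28-like. In w1118 trained flies replicate 1, also with testis markers, held 4.69 CPM for RpL10Aa, 4.96 for RpL22-like, 0.924 for RpS28-like and 3.39 each for RpS19b and RpS5b. The w1118 day 23 library with testis markers held 0.492 CPM for RpL10Aa.

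Other pools stood apart at levels of a few reads: RpS28-like at 0.292 CPM in Hsp70-null exercised flies, RpL10Aa at 0.046 and RpL22-like at 0.0783 in w1118 day 7 flies, RpL10Aa at 0.262 and RpL22-like at 0.291 in Hsp70-null trained flies, RpL10Aa at 0.293 and RpL22-like at 0.171 in Hsp70-null day 47 flies, and RpS19b at 0.518 in w1118 day 47 flies.

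Among abundant members, Hsp70-null day 7 replicate 4 was high for RpL29 (345 CPM), RpS14b (231) and RpS28b (581), and w1118 day 7 replicate 2 was high for RpL41 (577). RpL15 was high at 797 CPM in Hsp70-null day 23 replicate 1. In trained flies RpL39 was low at 209 CPM and RpS28b high at 650.0 CPM in single Hsp70-null pools, and RpL39 was high at 278 CPM in w1118 replicate 3. At w1118 day 47, replicate 4 was low for RpL31 (394 CPM), RpS27 (311), RpS28b (497) and the low paralog RpS15Ab (17.7).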

How the results depend on the processing

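Counts below are of the 89 tested members unless stated. With RLE factors 26 were called between strains at day 7, 11 at day 47, 2 in trained flies and 5 from day 23 to 47 in Hsp70-null flies. With no filter the count was 3 at day 47, 1 in exercised flies, 2 and 7 for the early and late intervals in Hsp70-null flies, and 64 for the whole span in w1118 flies. With at least 10 counts in every library it was 11 at day 47, 1 in exercised and 2 in trained flies, and 1 and 16 for the Hsp70-null intervals. DESeq2 called 25, 5 and 18 at days 7, 23 and 47, 2 in trained flies, 1 and 16 for the Hsp70-null intervals and 1 for the late w1118 interval. Without the libraries with testis markers, an alternative chosen after seeing the data, 1 was called in exercised flies, and 0 and 12 from day 7 to 23 and to 47 in Hsp70-null flies; RpS5b turned to −0.027 between strains at day 7. Fitting only the groups compared gave 5 for the early interval in w1118 flies, and 0 and 10 for the Hsp70-null intervals. Relative to the set, the whole-span count of abundant members was 9 in Hsp70-null flies without the libraries with testis markers, and 7 in Hsp70-null and 6 in w1118 flies with only the groups compared. The cause of these moves was not tested. The planned exclusion by the full testis list found 0 libraries and was not run.

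Same-numbered pools did not deviate together in all 4 pairs of any of 15 comparisons, so the numbers are not taken as pairs. A fit with a replicate block called 20, 3 and 15 between strains at days 7, 23 and 47, 4 in exercised and 2 in trained flies, and 7 for the late Hsp70-null interval.

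Leaving out 1 library at a time, the strain counts ran between 1 and 24 at day 7, 3 and 7 at day 23, 1 and 8 at day 47, 1 and 4 in exercised flies, 0 and 3 in trained flies, and 29 and 47 for the mean of the 5 pairs. In w1118 flies the early, late and whole spans ran between 5 and 51, 0 and 1, and 24 and 42; in Hsp70-null flies they ran between 0 and 6, 0 and 5, and 12 and 35. Exercise, training and interaction counts stayed at 0. Relative to the set, counts ran between 31 and 38 for the mean of the 5 pairs, 11 and 18 in Hsp70-null and 14 and 19 in w1118 flies. Log2 fold changes of rare paralogs ran between −0.14 and 6.05 for RpS19b and −0.022 and 3.44 for RpS5b between strains at day 7, and in Hsp70-null flies between −4.66 and 2.41 for RpS28-like from day 7 to 23, and between −5.98 and 0.22 for RpS19b and −5.84 and 1.30 for RpS28-like from day 7 to 47; the reversed ends are those without Hsp70-null day 7 replicate 2. Precision at low counts limits the rare paralogs.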
